A study of Homo sapiens with 30 samples.

Results

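The region examined here is 9q34 around ABL1, taken as every restriction fragment end at chr9:130000001-136000000 in hg19. Its members were chosen by position alone. They numbered 23375 of the 382657 chromosome 9 ends at the NOTCH1 promoter viewpoint, 26995 of 429740 at the S2 viewpoint and 26899 of 428705 at the S4 viewpoint. ABL1 was taken as about chr9:133590001-133760000, which leaves a centromeric side of 13976 ends and a telomeric side of 8665 ends at the promoter viewpoint. The study was a 4C-seq experiment on the NOTCH1 locus in K562, a human line from chronic myelogenous leukaemia. 4C-seq cross-links chromatin, cuts it, ligates it and counts which fragment ends were joined to one chosen fragment, the viewpoint. The 3 viewpoints were the NOTCH1 promoter and the CTCF sites S2 and S4, all telomeric of the region. Each was profiled in unedited cells (WT) and in cells labelled S2 mutant, S4 mutant, S5 mutant and S4-S5 mutant, so 5 genotypes with 2 libraries each gave 30 libraries. All groups were K562 grown in the same medium and fixed in 2% formaldehyde, and no agent differed between them. The labels do not give the kind of mutation, whether a mutant line was 1 clone, or whether the 2 libraries came from separate cultures, so the p-values below measure only how far these libraries spread, and that spread may be technical.

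ABL1 encodes a tyrosine kinase. In K562 its telomeric part is joined to BCR on chromosome 22, the fusion that drives chronic myeloid leukaemia, and this line is known to carry extra copies of the fusion and of 9q34 sequence next to it. Sequence telomeric of the breakpoint can therefore be present in more copies than sequence centromeric of it, and a 4C library can gain reads at a place with more copies as well as at a place that touches the viewpoint more often. In RefSeq's gene order the protein-coding genes next to ABL1 on the centromeric side are EXOSC2, a subunit of the RNA exosome, PRDM12, FUBP3 and ASS1, argininosuccinate synthase. On the telomeric side they include QRFP, FIBCD1, LAMC3, a laminin chain, AIF1L and NUP214, a nuclear pore protein that is itself rearranged in K562. Which of these genes lies in which hg19 bin was not assigned here. The tables hold read counts and no copy number, so copies and contacts cannot be told apart.

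A fragment end is the sequence next to a DpnII site. The RefSeq promoter window of ABL1 (GRCh38.p14, a different build from the read tables) holds 1 such site, 171 bases before the gene's start, and it is shown because it is the kind of site that every count here refers to. The plus-strand sequence at chr9:130835070-130835099 in GRCh38.p14, with the DpnII site in capitals, is
ABL1: ttccccctgcgagGATCgccattggcccgg
The 4 letters GATC, which read the same on both strands, occur in 41.7% of 35116 RefSeq promoter windows of 300 bases. A match describes the letters only, and it was not tied to an hg19 fragment end.

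The libraries held 1437870 to 8008761 reads on chromosome 9, and 76932 to 3102118 of these lay outside 5 kb of the viewpoint. That second number, the masked total, is the denominator below, and RPM stands for reads per 1000000 masked reads of a library. The region received 3140 to 91061 reads per library. The 2 libraries of a genotype shared many of the ends they read. At the promoter viewpoint 92 ends were read in both S2 mutant libraries, 41.4% and 38.8% of the ends of each, and 641 in both WT libraries, 88.2% and 84.7%. An end with at least 10 reads in both libraries is called supported here, and supported ends took 91.9% to 99.5% of the region's reads in the libraries of every genotype. Supported ends were compared between genotypes. At the promoter viewpoint 3 to 10 of the 453 supported WT ends were also supported in any one mutant, which was 0.662% to 2.21% of the WT ends and 2.84% to 10% of the mutant's. On the rest of chromosome 9 outside the mask the same shares were 10.7% to 33.2% of the WT ends and 40.1% to 67.5% of the mutant's. Beyond 500 kb of the viewpoint, outside the region, they were 1.31% to 5.51% and 8.43% to 20.2%, so low sharing with WT was found at distant ends elsewhere as well. The difference between the region and those ends was not tested. The largest overlap as a share of a genotype's ends was at the S2 viewpoint, where 7 ends were supported in both the S2 and the S5 mutant, 53.8% of the ends of the former and 15.6% of the latter. For the same 2 genotypes outside the region and beyond 500 kb it was 15 ends, 33.3% and 8.20%.

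WT libraries placed more of their masked reads in the region than any mutant at all 3 viewpoints. At the promoter viewpoint the 2 WT libraries had 8.09% and 8.08% of masked reads there. The S2 mutant had 4.08% and 3.97%, the S4 mutant 4.05% and 4.03%, the S5 mutant 3.84% and 3.75% and the S4-S5 mutant 4.43% and 4.31%. Both WT libraries lay above all 8 mutant libraries, and among the mutants the S2 and S4 libraries overlapped. The WT mean exceeded the mean of the 4 mutants by 4.03 percentage points. An exact permutation test of differences among the 5 genotypes used all 945 partings of 10 libraries into pairs. It gave an adjusted p of 0.00476 (upper tail of the F statistic, Benjamini-Hochberg over 12 values). Here and below it tests whether the genotypes differ, not whether WT lies above or below the mutants. The direction of the mean difference rests on the denominator here. As a share of reads beyond 500 kb of the viewpoint, the WT mean at the promoter lay 0.87 percentage points below the mutants' mean. Both S4 mutant libraries lay below WT in this unit, with 13141 of 55430 and 12902 of 54102 reads against 25766 of 105958 and 42474 of 175165. The other mutants lay above WT. The genotypes differed in this unit too (exact permutation test, adjusted p = 0.00317 over 3 values).

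At the S2 viewpoint the WT libraries had 6.70% and 6.78% of masked reads in the region. The S2 mutant had 3.87% and 3.80%, the S4-S5 mutant 3.09% and 2.94%, the S4 mutant 2.65% and 2.57% and the S5 mutant 2.63% and 2.49%. The S4 and S5 mutant libraries overlapped and the other genotypes did not. At the S4 viewpoint WT had 5.85% and 5.91%. The S2 mutant followed with 3.36% and 3.33%, the S4-S5 mutant with 2.44% and 2.53%, the S4 mutant with 1.96% and 1.95% and the S5 mutant with 1.75% and 1.69%, with no overlap between neighbours in that order. WT exceeded the mutants' mean by 3.74 percentage points at S2 and 3.50 at S4. This contrast was not itself tested. The genotypes differed at both viewpoints (exact permutation test among 5 genotypes, adjusted p = 0.00423 and 0.00254). With reads beyond 500 kb as the denominator WT was still above the mutants' mean at S2 and S4, by 1.03 and 1.26 percentage points. Single mutants differed from that mean. At S4 the S2 mutant lay above WT, with 17514 of 61866 and 16021 of 56988 reads against 63564 of 288730 and 89683 of 405295. The other mutants lay below WT there. At S2 the S4-S5 mutant overlapped WT and the others lay below it. Counted as a share of covered ends in place of reads, the genotypes no longer passed at S2 and S4 (exact permutation test, adjusted p = 0.0857 and 0.133). Across viewpoints the region's share, averaged over genotypes, was 4.86% ± 1.81 at the NOTCH1 promoter, 3.75% ± 1.75 at S2 and 3.08% ± 1.68 at S4 (SD, n = 5 genotypes). The viewpoints differed by an exact permutation within genotypes (adjusted p = 0.00309 over 4 values). They have different lists of fragment ends, with 23375, 26995 and 26899 in the region, and lie at different distances from it. The part of either in this difference was not tested.

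**Figure D1:**
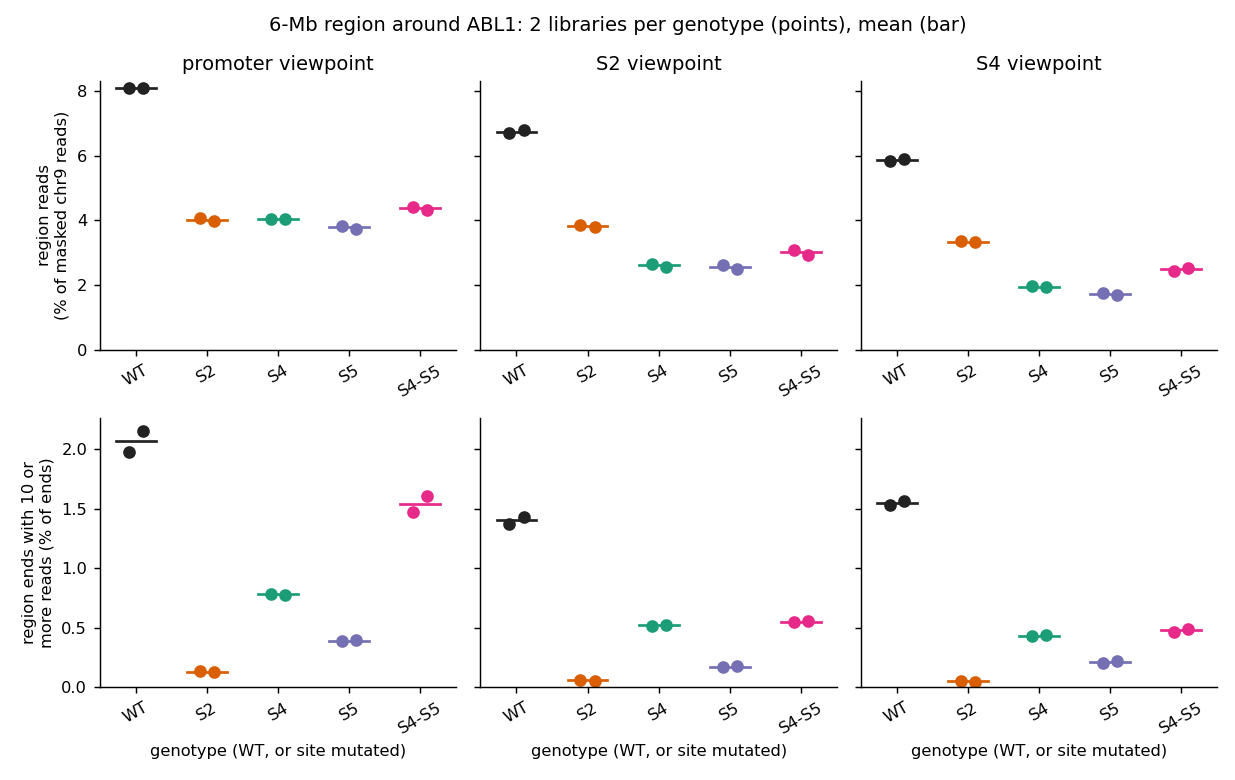
Reads in the 6-Mb region as a percent of masked chromosome 9 reads (top row) and region ends with 10 or more reads as a percent of the region's ends (bottom row), by genotype, for the 3 viewpoints. Each point is a library and each bar the mean of 2; the WT points, at 8.09% and 8.08% for the promoter, lie above every mutant in the top row, and the S2 mutant is lowest in the bottom row.

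The number of ends that carried the reads differed far more than the share of reads. At the promoter viewpoint WT had 453 supported ends, the S4-S5 mutant 340, the S4 mutant 176, the S5 mutant 82 and the S2 mutant 30. At the S2 viewpoint WT had 366, the S4-S5 mutant 146, the S4 mutant 135, the S5 mutant 45 and the S2 mutant 13. At the S4 viewpoint WT had 408, followed by the S4-S5 mutant with 125, the S4 mutant with 113, the S5 mutant with 54 and the S2 mutant with 13. WT came first and the S2 mutant last at each viewpoint. Masked totals differed at the promoter, with 76932 and 81895 reads in the S2 mutant and 318591 and 525512 in WT. They differed at the S4 viewpoint as well, with 521742 and 481265 reads in the S2 mutant and 1087466 and 1518459 in WT. At the S2 viewpoint the S2 mutant had masked totals of 819621 and 900948 reads and WT of 713125 and 934399. The other mutants had 1802348 to 3102118 there, above both WT libraries. Totals with the masked reads included were lower in WT than in any mutant. WT libraries had 1437870 to 2326487 chromosome 9 reads and mutant libraries 3500663 to 8008761. In the S2 mutant at the promoter they were 5417204 and 5681351, most of them inside the mask. In the S2 mutant a single end took 22.4% and 21.3% of the region's reads in its promoter libraries, 20.7% and 21.3% in those of S2 and 19.1% and 18.0% in those of S4. In WT the most covered end took 0.881% to 1.43% of them. The values of the S2 mutant below therefore rest on 13 to 30 ends. The PCR products were sequenced without molecular identifiers, so many reads at 1 end can stem from a single ligation.

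The share of region ends with any read was also highest in WT. At the promoter viewpoint it was 3.11% and 3.24% in the WT libraries and 0.950% to 2.36% in the mutants. At S2 it was 2.30% and 2.34% in WT and 1.04% to 1.47% in the mutants, and at S4 2.32% and 2.33% against 0.996% to 1.34%. The genotypes differed at each viewpoint (exact permutation test, adjusted p = 0.00254, 0.00705 and 0.0286). Without replicate 2 of the S4 mutant the S4 viewpoint no longer passed (exact permutation test, adjusted p = 0.0593). Many covered ends were faint, with 1 to 9 reads. Faint ends made up 31.8% to 95.2% of the covered ends in mutant libraries, with a median of 69.3%, and 32.9% to 40.3% in WT libraries, but at most 8.09% of a library's region reads. In the mutants 62.2% to 100% of the faint ends lay at ends that also had a read in another genotype at the same viewpoint. In WT libraries it was 41.7% to 73.6%, and at each viewpoint WT lay below every mutant library in this share. Ends with over 200 reads in another genotype had a read in 23.95% to 63.8% of cases in a mutant library, with a median of 1 to 2 reads there, and in 28.2% to 66.8% of cases in a WT library. In a mutant library, ends without a read in the other genotypes had one in at most 0.314% of cases, and in a WT library in 0.249% to 0.773%. Such faint reads were thus present in WT as in the mutants. The part of such faint reads in the share of covered ends was not tested, and the comparisons below use supported ends beside reads.

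The WT level varied along the region by a few fold. In 500-kb bins the WT mean ran from 1.74 to 5.98 RPM per end at the promoter viewpoint, a 3.44-fold range. The range was 4.17-fold at S2 and 2.39-fold at S4. The mutants spanned 3.68-fold to 277-fold, with the widest range in the S2 mutant at the S2 viewpoint. The 100-kb bin with the highest WT level at the promoter was chr9:135900001-136000000, the bin of the region nearest to the viewpoint, with 16.1 ± 0.53 RPM per end (SD, n = 2). The next was chr9:130700001-130800000, with 10.8 ± 0.02, at 8.74 Mb from the viewpoint. At S2 the highest bins were chr9:132500001-132600000, with 6.06 ± 0.03, and chr9:134000001-134100000, with 5.96 ± 0.16. At S4 the highest was chr9:131000001-131100000, with 7.28 ± 0.42 at 8.52 Mb. The order of these bins was not that of distance to the viewpoint. The 5 bins at ABL1, those overlapping it and 1 on each side, were not among the highest. They ranked 10th to 19th in WT at the promoter, 19th to 38th at S2 and 10th to 51st at S4.

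**Figure D2:**
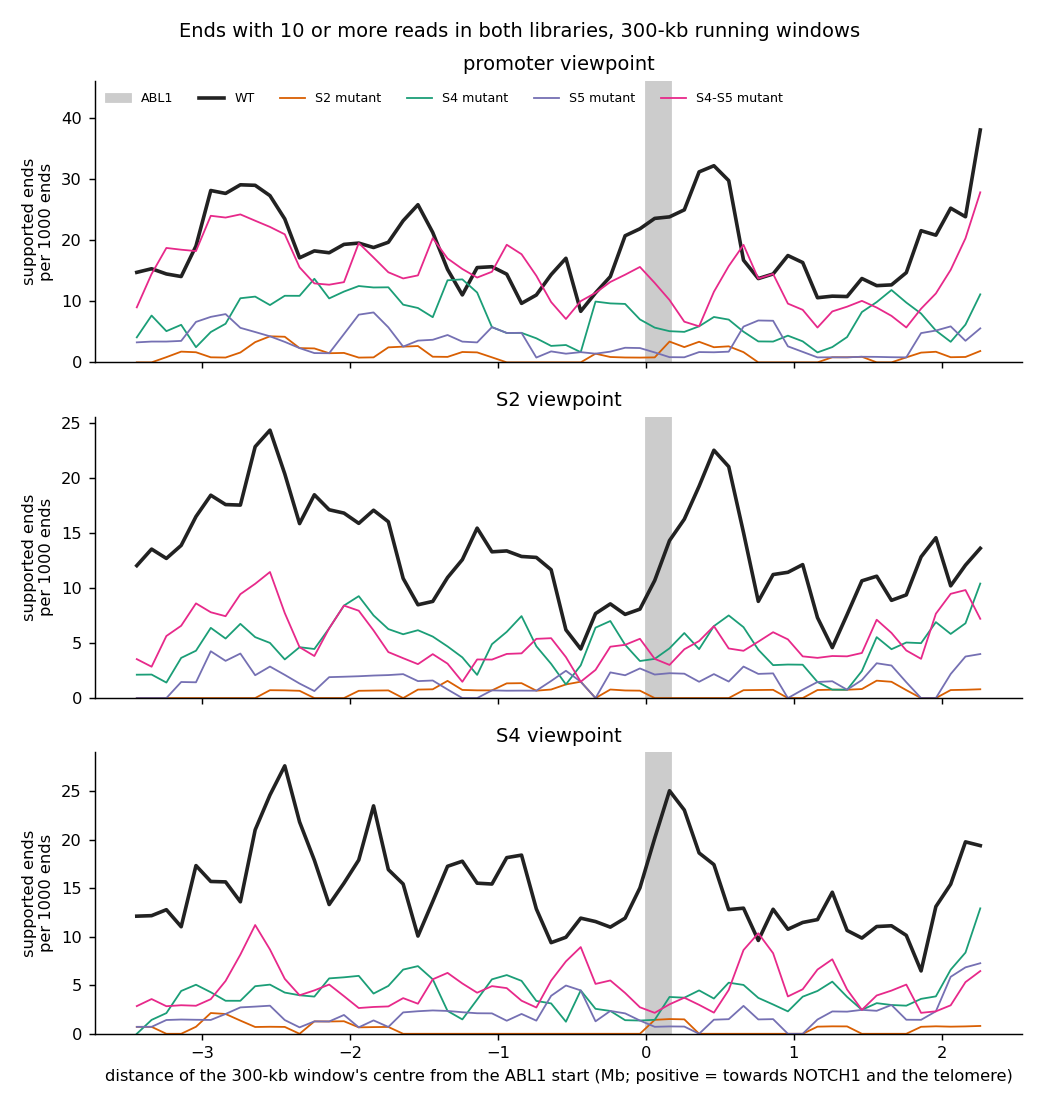
Supported ends (10 or more reads in both libraries) per 1000 ends in 300-kb running windows against the distance of the window's centre from the ABL1 start in Mb, for the 3 viewpoints; each line is a genotype and the grey band is ABL1. The thick WT line rises at or just telomeric of ABL1 at all 3 viewpoints, and also near the centromeric end of the region, while the S2 mutant lies near 0 throughout.

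Over the whole sides of ABL1 the direction depended on the viewpoint. The measure is the log2 ratio of reads per end on the telomeric side, which is nearer to the viewpoints, over the centromeric side. In WT at the promoter it was 0.22 and 0.21, from 3.78 and 3.77 RPM per end on the telomeric side and 3.24 and 3.25 on the centromeric side. All 8 mutant libraries at the promoter were below 0, between -0.70 and -0.44. At the S2 viewpoint WT was at -0.21 and -0.24, and the mutants lay above it, from -0.07 to 0.26. At the S4 viewpoint WT was at -0.10 and -0.14, the S4 and S5 mutants were above 0 and the S2 and S4-S5 mutants below WT. In ends with 10 or more reads the S4-S5 mutant at S4 lay above WT instead, at 0.10 and 0.24 against -0.14 and -0.16. The genotypes differed at each viewpoint (exact permutation test, adjusted p = 0.0140, 0.00254 and 0.00476). WT minus the mutants' mean was 0.72 at the NOTCH1 promoter, -0.34 at S2 and -0.03 at S4. The genotypes at S2 no longer passed with ends of 10 or more reads in place of reads (exact permutation test, adjusted p = 0.556). The difference at S4 turned to 0.03 when ABL1 was counted with the telomeric side. With non-blind ends only, the class of ends that the tables mark so, the 3 differences were 0.84, -0.50 and -0.54, and with sides of 2 Mb they were 0.99, -0.16 and 0.04. Averaged over genotypes, the viewpoints did not pass the test (exact permutation, adjusted p = 0.146).

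Close to ABL1 the WT libraries had more reads on the telomeric than on the centromeric side at every viewpoint. In the 500 kb on each side of the gene the WT libraries at the promoter had 4.90 and 4.97 RPM per end telomeric of ABL1 and 3.15 and 3.10 centromeric of it. At S2 they had 4.02 and 3.96 against 1.16 and 1.24, and at S4 2.47 and 2.55 against 1.49 and 1.54. The log2 step across ABL1 in WT was 0.66 ± 0.03 at the NOTCH1 promoter, 1.73 ± 0.08 at S2 and 0.72 ± 0.00 at S4 (SD, n = 2). Inside ABL1 the WT level was 3.94 and 3.74 at the promoter, 2.94 and 3.07 at S2 and 3.10 and 2.99 at S4. At the promoter and S2 the gene's level thus lay between those of its flanks, and at S4 above both.

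In supported ends the WT step was in the same direction. At the promoter 55 of 1941 telomeric flank ends and 26 of 1516 centromeric flank ends were supported, a ratio of 1.65 per end. At S2 it was 43 of 2222 against 12 of 1718, a ratio of 2.77. At S4 it was 40 of 2215 against 19 of 1707, a ratio of 1.62. In the 4 mutants pooled the ratio was 0.93 at the promoter (43 of 7764 against 36 of 6064), 1.10 at S2 (30 of 8888 against 21 of 6872) and 1.32 at S4 (24 of 8860 against 14 of 6828). Single mutants differed from the pool. The S2 mutant at the promoter had 6 against 1, a ratio of 4.69, and the S4 mutant at S4 had 11 against 3, a ratio of 2.83, both above WT. At S2 the mutants' ratios were 0 to 1.29, below that of WT. Pooled mutant ends are sums over 4 genotypes and were not tested against WT.

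The mutants' steps in reads varied widely. At the promoter the S4, S5 and S4-S5 mutants had steps of 0.05 ± 0.04, 0.11 ± 0.16 and 0.08 ± 0.07, all 6 libraries below both WT libraries. At S2 the same genotypes had 1.14 ± 0.02, 1.40 ± 0.07 and 0.72 ± 0.13, also below WT. At S4 they had 0.23 ± 0.00, 0.10 ± 0.15 and -1.17 ± 0.08. The S2 mutant stood apart, with steps of 1.11 ± 0.08 at the NOTCH1 promoter, -6.54 ± 0.17 at S2 and 3.78 ± 0.15 at S4. At S2 its telomeric flank held 62 and 72 reads and its centromeric flank 4835 and 4749, with 0 and 1 supported ends. At S4 it held 648 and 594 telomeric and 39 and 31 centromeric reads, with 1 and 0 supported ends. The genotypes differed in the step at each viewpoint (exact permutation test, adjusted p = 0.0162 at the promoter and 0.00254 at S2 and S4). The smallest unadjusted p that 945 partings can give is 0.00106. WT minus the mutants' mean was 0.32 at the NOTCH1 promoter, 2.55 at S2 and -0.01 at S4, and the S2 mutant weighs on each of these means. The size of the difference depended on the ends compared. With 1 Mb on each side it was 0.02, 0.68 and -0.24 at the same viewpoints, and with non-blind ends only 1.65, 1.02 and -0.32. Counted in ends with a read, the step no longer passed at the promoter, at S2 or at S4 (exact permutation test, adjusted p = 0.133, 0.133 and 0.151).

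**Figure D3:**
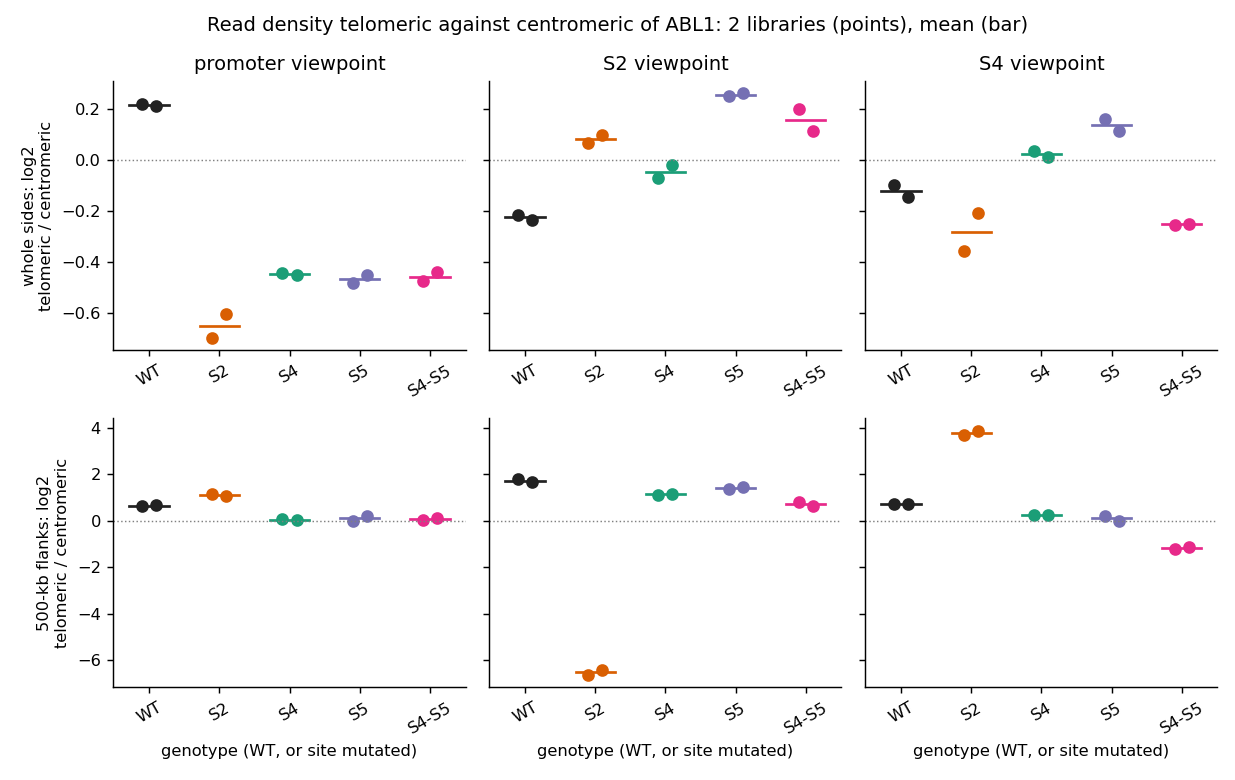
Log2 ratio of reads per end telomeric over centromeric of ABL1, over the whole sides of the region (top row) and over 500 kb on each side (bottom row), by genotype and viewpoint, with the dotted line at 0. Points are libraries and bars the mean of 2; in the bottom row WT is above 0 at all 3 viewpoints, between 0.64 and 1.79, and the S2 mutant runs from -6.66 to 3.88.

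The step at ABL1 was not the steepest in the region. Among 59 boundaries between 100-kb bins, each with 500 kb on either side, the WT step in supported ends at the boundary inside ABL1, position 133600000, ranked 13th at the promoter, 3rd at S2 and 5th at S4. The highest WT step was at position 130200000 at the promoter and at S4, and at 130100000 at S2. In the S4-S5 mutant the step in supported ends at the ABL1 boundary was -0.79 at the NOTCH1 promoter, -0.03 at S2 and -0.73 at S4, and ranked 58th, 38th and 53rd.

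The WT signal telomeric of that boundary formed an interval of about 600 kb. In chr9:133600001-134200000 WT had 67 supported ends among 2390 at the promoter viewpoint, 28.03 per 1000. The 600 kb centromeric of it had 16.7 per 1000 and the 600 kb telomeric of it 15.01. At S2 the 3 values were 6.62, 18.5 and 10.4 per 1000, in order from the centromere, and at S4 they were 11.9, 21.1 and 10.5. RPM per end followed, with 3.12, 5.01 and 2.45 at the promoter, 1.39, 3.63 and 1.71 at S2 and 1.54, 2.97 and 1.83 at S4. The interval's end was chosen after its values were seen, so no test is given. Its level was 1.68, 1.77 and 1.78 times that of the higher neighbour at the promoter, S2 and S4.

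In the mutants the interval's place relative to its neighbours depended on the unit and the genotype. In supported ends per 1000 ends, the average of the 4 mutants was 5.66, 5.33 and 4.72 at the promoter, 2.72, 3.15 and 2.52 at S2 and 2.74, 2.04 and 3.01 at S4, in the same order of intervals. The S4-S5 mutant, which had the most supported ends of the mutants, had 12.9, 10.9 and 11.1 at the promoter, 3.78, 4.82 and 4.48 at S2 and 5.71, 2.60 and 7.51 at S4. The S4 mutant had 7.01, 6.28 and 3.43 at the promoter, 4.26, 5.56 and 3.73 at S2 and 2.38, 3.71 and 3.76 at S4. In the S2 mutant 0 to 7 ends were supported in any of the 3 intervals. In RPM per end the average of the 4 mutants was 1.13, 1.49 and 1.07 for the promoter. For S2 it was 1.31, 0.98 and 0.88, and for S4 0.89, 0.69 and 0.68. In this unit the average lay above both neighbours at the promoter, and in supported ends at S2. At S2 the S4 mutant had 0.66, 1.29 and 0.75 RPM per end, the S5 mutant 0.45, 1.44 and 0.75 and the S4-S5 mutant 0.59, 1.18 and 0.77, each highest in the interval, and the S2 mutant had 3.53, 0.03 and 1.24. The difference in shape between WT and the mutants was not tested.

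**Figure D4:**
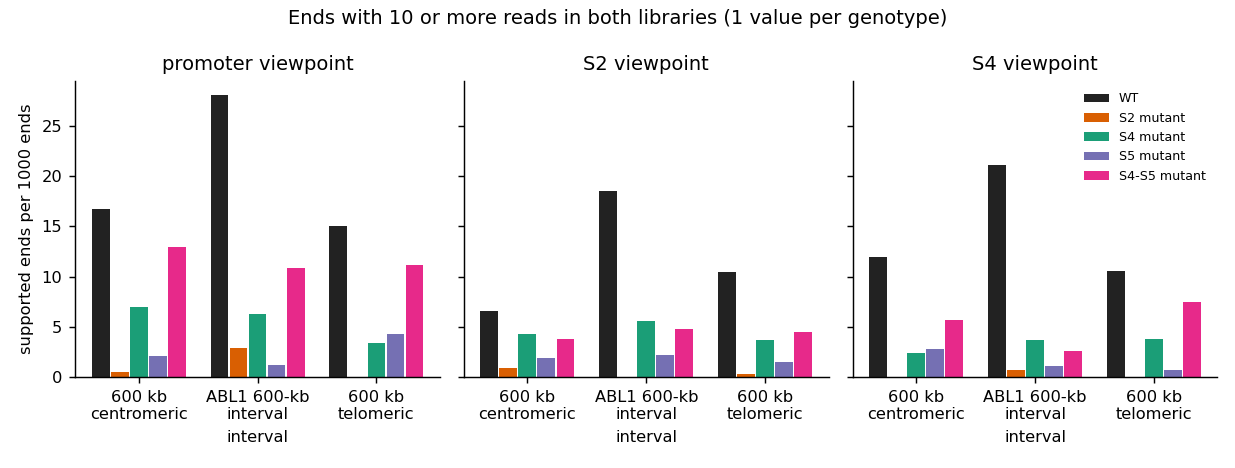
Supported ends per 1000 ends in the 600-kb interval that starts inside ABL1 and in the 600 kb on each side of it, by genotype, for the 3 viewpoints (bars start at 0; 1 value per genotype, without an error). The black WT bar is highest in the middle interval at all 3 viewpoints, at 28.03, 18.5 and 21.1 per 1000.

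The 5 bins of 100 kb at ABL1, those overlapping it and 1 on each side, were lower in most mutants. The 4 mutants gave 20 comparisons per viewpoint by edgeR's quasi-likelihood test, adjusted over all chromosome 9 bins with a mean of at least 10 reads. At the promoter 19 fell and 1 rose, at S2 17 fell and 2 rose, and at S4 17 fell and 3 rose. Over all chromosome 9 bins 73.9% to 82.3% fell, so the share that fell at ABL1 lay near or above the background. The bin at the start of the gene's telomeric part, chr9:133600001-133700000, had 534 and 860 WT reads at the promoter. It held 384 and 521 reads in the S4-S5 mutant, a log2 fold change of -1.20 (SE 0.07). At S4 this bin had 1861 and 2190 WT reads while the S4 mutant kept 4 and 2, the S5 mutant 5 and 4 and the S4-S5 mutant 4 and 5. Their log2 fold changes were -10.23, -8.98 and -9.70 (SE 0.23, 0.23 and 0.22). Each was the lowest of the region for its mutant at that viewpoint among bins whose libraries did not overlap. These mutant libraries had 0 ends of the bin with 10 or more reads, so the size of each fall rests on 2 to 5 faint reads per library. Of the 5 bins, the one that rose most was chr9:133400001-133500000, which lies centromeric of the gene, in the S2 mutant at S2. It had 642 and 870 WT and 4812 and 4733 mutant reads, a log2 fold change of 2.60 (SE 0.09). In each of these mutant libraries only 1 end of the bin had 10 or more reads.

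Across the whole region nearly every bin passed the test, as it did elsewhere on the chromosome. At the promoter viewpoint 56 of 59 region bins passed in the S2 mutant (50 lower, 6 higher), where 87.1% of all 518 bins passed, 80.1% lower and 6.95% higher. The S4 mutant had 54 (45 lower, 9 higher), against 89.4% of all bins, 78% lower and 11.4% higher. The S5 mutant had 55 (48 lower, 7 higher), against 88.2%, 77.4% and 10.8%. The S4-S5 mutant had 54 (43 lower, 11 higher), against 91.1%, 73.9% and 17.2%. The counts in the region were close to the background in each case. The median log2 fold change of the region was -3.60, -1.37, -1.43 and -1.01 in the 4 mutants in this order, while that of all bins was -4.88, -4.06, -4.70 and -2.22.

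Most region bins passed at the other viewpoints as well. The share of higher bins in the S2 mutant lay above the background there. It was 18.6% of region bins against 7.95% of all bins at S2, and 13.6% against 6.25% at S4. This difference was not tested. At S2 58 of 59 region bins passed in the S2 mutant (47 lower, 11 higher), against 88.7% of 478 bins, 80.8% lower and 7.95% higher. The S4 mutant had 55 (49 lower, 6 higher) against 91.4%, 79.1% and 12.3%. The S5 mutant had 56 (46 lower, 10 higher) against 90.4%, 78.7% and 11.7%, and the S4-S5 mutant 56 (49 lower, 7 higher) against 91.8%, 78% and 13.8%. At S4 all 59 passed in the S2 mutant (51 lower, 8 higher), against 88.5% of 496 bins, 82.3% lower and 6.25% higher. The S4 mutant had 54 (48 lower, 6 higher) against 90.1%, 78.4% and 11.7%. The S5 mutant had 54 (48 lower, 6 higher) against 90.1%, 80.2% and 9.88%, and the S4-S5 mutant 51 (43 lower, 8 higher) against 91.3%, 77.6% and 13.7%. When ends with a read were counted in place of reads, the edgeR test passed 0 to 2 region bins in each comparison, and 2 to 7 at an unadjusted p under 0.05. When ends with 10 or more reads were counted, it passed 0 to 20, and 12 to 30 unadjusted.

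The split between lower and higher bins depended on the scaling. With the masked total 10.7% to 20.4% of the bins that passed at the promoter were higher, 10.9% to 19.0% at S2 and 11.1% to 15.7% at S4. With the region's own reads as library size these shares were 20.8% to 46% at the promoter, 20.3% to 45.1% at S2 and 15.3% to 43.4% at S4. With reads beyond 500 kb they were 22.2% to 48%, 20.3% to 40% and 15.3% to 41.2%. With TMM factors they were 30.4% to 54.2%, 20.3% to 60.4% and 15.3% to 45.7%, and with DESeq2's size factors 31.5% to 49.0%, 23.6% to 67.3% and 24% to 55.8%. With the region's own reads or reads beyond 500 kb, fewer of the called bins were higher than lower in every comparison. With TMM or DESeq2 over 50% were higher in some comparisons. In the S2 mutant most called bins were lower under each of these scalings, with at most 31.5%, 23.6% and 24% higher at the 3 viewpoints in the same order. The scalings also moved the median over all bins, which ran from -7.84 to -2.22 with the masked total and from -6.16 to -1.32 with DESeq2.

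The bins that rose most lay at several places in the region. At the promoter the bin chr9:132300001-132400000 rose most in the S2 mutant, from 353 and 618 WT reads to 710 and 692, a log2 fold change of 2.94 (SE 0.08). The bin chr9:133200001-133300000, at the edge of a stretch centromeric of ABL1 without fragment ends, rose most in the S4 mutant and in the S4-S5 mutant. It had 6 and 16 WT reads, 70 and 61 in the S4 mutant and 171 and 265 in the S4-S5 mutant, log2 fold changes of 2.95 (SE 0.31) and 3.71 (SE 0.26). In the S5 mutant the bin chr9:134300001-134400000 rose most, from 187 and 331 to 600 and 596 reads (2.24, SE 0.08). At S4 the bin chr9:134200001-134300000, just telomeric of the 600-kb interval, rose most in the S4 mutant and in the S4-S5 mutant, from 113 and 203 WT reads to 712 and 798 and to 1192 and 1979 (1.37, SE 0.14 and 2.40, SE 0.14).

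Bins that fell reached 0 reads in the S2 mutant. At the promoter chr9:134700001-134800000 had 361 and 682 WT reads and 0 in both S2 mutant libraries, at least 32.1-fold lower against a floor of 3 reads per library. At S4 chr9:135000001-135100000 had 78 and 94 WT reads and 0 in both, at least 11.2-fold lower. At S2 the lowest bin of the S4 mutant was chr9:133500001-133600000, which holds the start of ABL1, with 783 and 1203 WT and 5 and 5 mutant reads (log2 fold change -9.15, SE 0.24). In each WT library only 2 ends of that bin had 10 or more reads, and in each S4 mutant library 0 had. At the promoter the lowest bin of the S4-S5 mutant was chr9:133900001-134000000, inside the 600-kb interval, with 563 and 1005 WT and 31 and 43 mutant reads (-4.97, SE 0.12).

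Set against the rest of chromosome 9, the region stood above the far background in every genotype. In WT it had 3.46 RPM per end at the NOTCH1 promoter, 2.50 at S2 and 2.18 at S4, and ends beyond 20 Mb of the viewpoint had 0.272, 0.244 and 0.189. That is a ratio of 12.7, 10.2 and 11.6. In the mutants the far ends had 0.0196 to 0.0832 and the ratio was 15.6 to 63.5. In supported ends the region had 19.4, 13.6 and 15.2 per 1000 in WT, against 5.82, 3.92 and 4.12 in the 6 Mb centromeric of it and 48.9, 36.6 and 51.9 between its telomeric end and 500 kb before the viewpoint, at the promoter, S2 and S4. WT thus lay above every mutant in far reads as in the region's share. Among the mutants the 2 did not move together. The S5 mutant had the highest mean of far reads, 0.0832, 0.0553 and 0.0410 RPM per end at the promoter, S2 and S4. Its mean level in the region was the lowest, at 1.62, 0.948 and 0.639. The part of far reads in the region's share was not tested.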

How the data were processed

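The tables list the chromosome 9 fragment ends of each library with whole read counts, which the authors deposited without normalization, per the file headers. Per the labels' protocols, DpnII was the first cutter and NlaIII or CviQI the second. The submitters' processing notes name hg19 and deepTools, with no role for either, and no source used here names the aligner or the read filters. The scaled and smoothed columns of the tables were left aside. The viewpoint was the centre of the most covered 5-kb window, and reads within 5 kb of it were masked. Region reads were taken per library as a share of masked reads and per fragment end. Values were compared by exact permutation, adjusted over 12 values, or over those tested under the same alternative. Bins of 100 kb with a mean of at least 10 reads were tested with edgeR 4.0.16 in R 4.3.3, with the masked total as library size, all 10 libraries of a viewpoint in 1 fit, Benjamini-Hochberg adjustment and a threshold of 0.05. DESeq2 1.42.0, other library sizes, masks, units and left-out libraries were alternatives. Both tests were checked on simulated data.

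The region, lists and tests were chosen with earlier results of these data known. Bins named in the text are those overlapping ABL1 with 1 bin on each side, the WT bins with the highest level, and for each mutant the most changed bin in each direction among those past the threshold whose libraries lie beyond both WT libraries, given in part. The 600-kb interval and the supported ends (10 reads in both libraries) were chosen after the values were seen. Replicate numbers were not treated as pairs, since the correlation of same-numbered deviations lay between -0.15 and 0.24. An hg19 annotation was not used here.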

Additional observations from a re-analysis of the deposited data

Results flagged for a closer look

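The telomeric to centromeric log2 ratio over the whole sides of ABL1 moved in opposite directions at different viewpoints in every mutant, with both libraries of each mutant on the same side of WT. These differences between viewpoints were not tested. Mutant minus WT, the S2 mutant was at -0.87 for the promoter, 0.31 for S2 and -0.16 for S4. The S4 mutant was at -0.66, 0.18 and 0.14 at the same viewpoints. The S5 mutant was at -0.68, 0.48 and 0.26, and the S4-S5 mutant at -0.68, 0.38 and -0.13. In ends with 10 or more reads the S4-S5 mutant lay above WT at S4, at 0.10 and 0.24 against -0.14 and -0.16, so its direction there depends on the unit. The step across ABL1 in the S2 mutant also moved in opposite directions, by 0.45 for the promoter, -8.27 for S2 and 3.06 for S4 relative to WT, from flanks with at most 6 supported ends.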

How the results depend on the processing

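Over all results and alternatives, 349 values were counted as unchanged, 9 as reversed in sign, 8 as having lost their call and 24 as moved in size. Unchanged differences between WT and the mutants kept their direction and their side of the threshold. The percent of region bins that passed was judged by its size alone, without a check of direction or threshold. For WT minus the mutants, the share of region reads at the promoter turned to -0.87 percentage points when reads beyond 500 kb were the denominator, which by construction leaves out the near reads. Counting ends with a read in place of reads gave values past no threshold: shares of 2.17 at S2 and 2.71 at S4, whole-side log2 ratios of -0.12 at S2 and -0.16 at S4, and steps of 0.86 at the NOTCH1 promoter, 0.44 at S2 and 0.16 at S4, the last with its sign turned. At S4, counting ABL1 with the telomeric side turned the whole-side ratio to 0.034 and the step to 0.91, sides of 2 Mb turned the ratio to 0.041, and ends with 10 or more reads, chosen after the data were examined, turned the step to 0.19. With those ends the ratio at S2, -0.25, lost its call. Apart from the alternatives' own units and intervals, the cause of these changes was not tested. Leaving out 1 library moved the step at S4 between -0.039 and 0.015 (above 0 without S2 mutant replicate 2, S5 mutant replicate 1 or S4-S5 mutant replicate 2) and the share of covered ends at S4 between 1.14 and 1.20 percentage points (call lost without S4 mutant replicate 2).

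The percent of tested region bins that passed moved by over 1.5 times when ends replaced reads, where few ends per bin are counted. With ends that had a read it was, in the order S2, S4, S5 and S4-S5, 3.39, 0, 1.70 and 3.39 at the promoter, and 0 in all 4 mutants at S2 and at S4. With ends of 10 or more reads it was 0, 11.9, 18.6 and 3.39 at the promoter, 5.36, 10.7, 35.7 and 7.14 at S2 and 15.8, 21.1, 26.3 and 10.5 at S4. With the replicate block 88.1% to 100% of region bins passed, against 86.4% to 100% without it, and no call of the 4 region values changed. The S2 mutant's values are limited by its 13 to 30 supported ends.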
